A study of Arabidopsis thaliana with 16 samples.

Results

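Transcripts of 10 serine/arginine-rich (SR) and SR-like splicing factor genes were followed in Arabidopsis thaliana seedlings kept warm or exposed to cold. The genes were taken by locus identifier, not by any measured value, from 34262 features in the gene count files: SR30, SR34, RS31, RS40, RS41, RS2Z32, RS2Z33, SCL33, SCL30A and SR45. Each was also looked up in the m6A peak lists. The other genes annotated as SR or SR-like, also 10 in number, were kept apart as a comparison list. The series concerns m6A and the response to cold. All samples were whole Col-0 seedlings, 20 days old, raised on half-strength (1/2) MS agar at 22 °C with 12 h of light and 12 h of dark. Cold seedlings were then moved to 4 °C for 24 h, and control seedlings had no treatment. Each condition had 3 total mRNA libraries, 2 polysomal RNA libraries and 3 peak lists from immunoprecipitation of RNA fragments carrying N6-methyladenosine (m6A).

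SR proteins carry an RNA recognition motif and a domain rich in arginine and serine. They bind exons and introns of precursor mRNA and help the U1 particle and the U2AF factor to choose the splice sites. Kinases of the SRPK and LAMMER (AFC) families phosphorylate the arginine/serine domain and so alter where the proteins sit and what they bind. Plants hold subfamilies that animals lack. The RS proteins (RS31, RS40, RS41) have a pair of RNA recognition motifs and no zinc knuckle, the RS2Z proteins (RS2Z32, RS2Z33) have a pair of zinc knuckles, and the SCL proteins (SCL33, SCL30A) have a charged extension at the N terminus. SR30 and SR34 belong to the subfamily that resembles human SRSF1. SR45 carries arginine/serine domains on both sides of its RNA recognition motif and is usually counted as SR-like. Precursor mRNAs of plant SR genes are themselves spliced in many ways, often to isoforms with an early stop codon that are held in the nucleus or degraded. Gene counts add all isoforms of a gene, so neither a splicing change nor the amount of protein could be seen in them. In whole seedlings, fewer cells that express a gene and less RNA per cell cannot be told apart.

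Gene counts ranged from 3282574 to 10965304 per total mRNA library and from 12984431 to 22200225 per polysome library. Cold mRNA replicate 3 was the shallowest, with organelle genes taking 22.1% of its gene counts and 6.28% to 8.7% of those in the other mRNA libraries. Levels are CPM, gene counts per 1e+06 counts of the library, scaled between libraries with TMM factors. Leaf markers (RBCS1A, RCA, CA1, LHCB1.3) summed to between 2.08e+04 and 3.54e+04 CPM in total mRNA. The 6 root markers summed to between 112 and 151 CPM in total mRNA but to no more than 72 CPM in polysomal RNA, and the 4 floral organ markers to no more than 6.97 CPM in any library. COR15A, a chloroplast stroma protein induced by cold, was at 39.2, 40.6 and 13.5 CPM in control mRNA and at 3.76e+03, 3.12e+03 and 2.59e+03 CPM in cold mRNA. All 10 SR genes passed the filter on low counts in each comparison.

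The m6A peaks on these genes lay mostly towards the 3′ end, as peaks on plant mRNAs usually do. The 30 bases around the summit of the strongest peak are printed for the 5 genes whose strongest peak had the highest −log10 q in the authors' deposited values, so that the marked stretches can be seen. They come from the RefSeq genome of TAIR10.1, read 5′ to 3′ on the transcript strand. Capitals mark the m6A consensus, which is the letters AC with a purine at each of the 2 bases before them and any base but guanine after them.
SCL30A (chr3:4429494-4429523, minus strand, 3′ UTR): cagtcttgttctgtttgatcagatattttg
SR45 (chr1:5675720-5675749, minus strand, 3′ UTR): gtggatctcctcattagatgcaacgataat
RS40 (chr4:13026895-13026924, plus strand, coding sequence): gccctactaagtacagccgcagtcccaaca
RS31 (chr3:22900155-22900184, minus strand, 3′ UTR): ttttatcttaaaatcagtagAAACTtcata
RS41 (chr5:21133275-21133304, plus strand, coding sequence): gAAACTgaagcagcccctctcgttcgccgc

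Only the transcript strand was searched for these words. Of the 10 genes, 4 had a word within the window of their strongest peak, and the same was true of 36.1% of all 46051 windows around peaks with a q of at most 0.05. The word TGTA, described in plants as a feature of m6A-bound RNA, was in 1 of the 10 windows (SR34) and in 18.7% of all windows. It can overlap a consensus word by 1 base at most.

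The first question was how the 24 h cold treatment changed the amount of each SR transcript. In total mRNA, 4 of the 10 SR genes rose (RS40, RS2Z32, SR45, SCL30A) and 4 fell (SCL33, SR30, RS31, RS2Z33) at an adjusted p under 0.05. RS40 had the widest rise of the 10, from 26.3 ± 5.71 to 132 ± 13.9 CPM (SD, n = 3). SCL33 had the deepest fall of the 10, from 31.5 ± 2.96 to 11.4 ± 1.52 CPM (SD, n = 3). Across all 19261 genes tested, 13.4% rose, 12.3% fell and 25.7% did either. The median size of the log2 change, whatever its sign, was 0.72 over the 10 SR genes and 0.42 over all genes tested. Tests were edgeR quasi-likelihood tests, and adjusted p-values take in all genes tested (Benjamini-Hochberg). The labels do not say whether replicates were separate cultures, so the p-values rest on a spread between libraries that may be technical. The plot of CPM by library shows the spread behind each change.

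**Figure D1:**
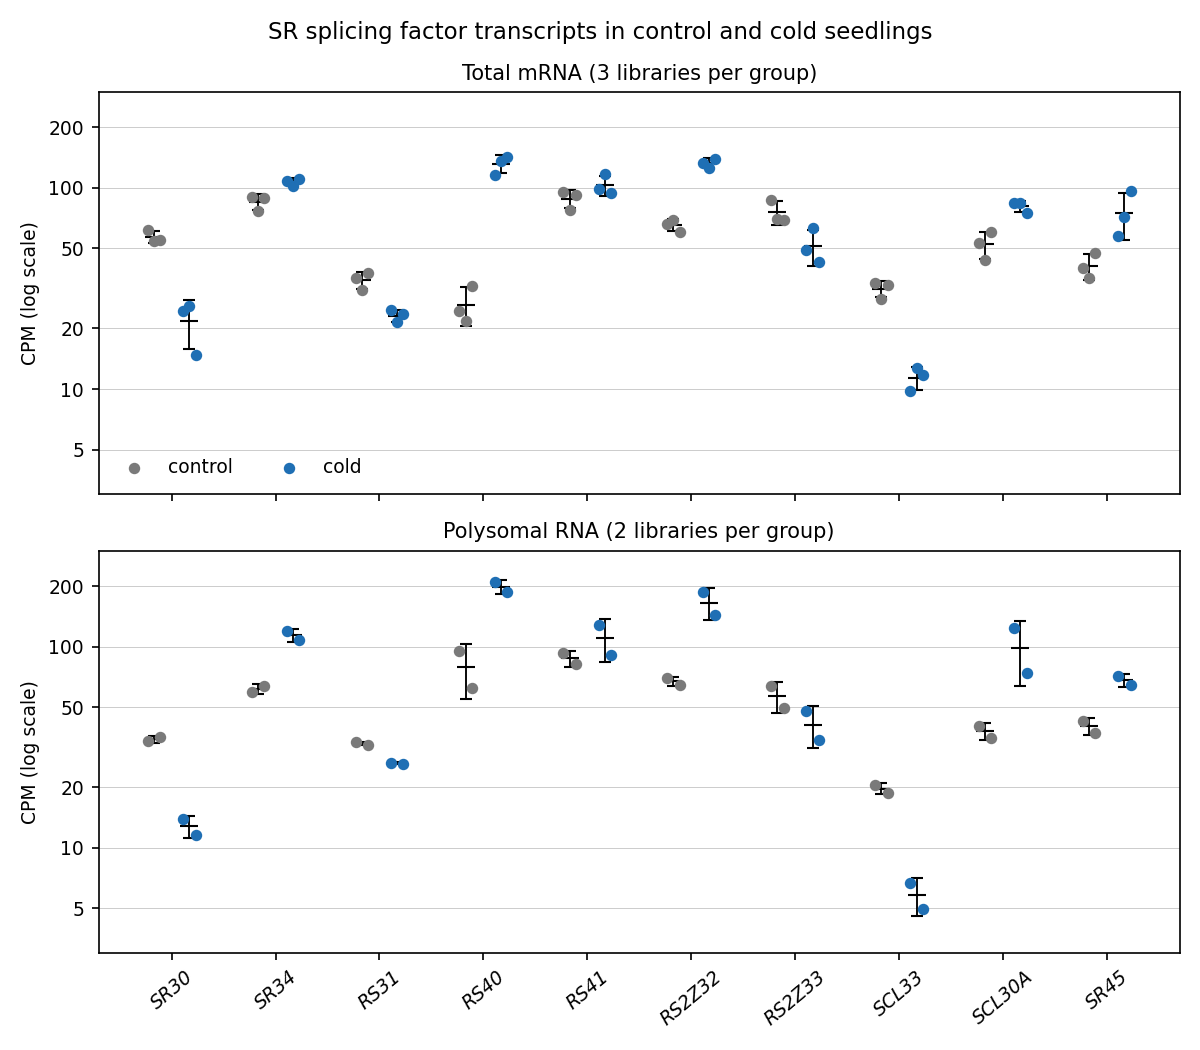
CPM (log axis) of the 10 SR genes in each total mRNA library (upper panel) and polysomal RNA library (lower panel), with control in grey, cold in blue, and black marks for the mean and SD of each group. RS40 sits between 21.8 and 32.7 CPM in control mRNA and between 116 and 143 CPM in cold mRNA, while SCL33 and SR30 sit lower in cold in both panels.

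The SRSF1-like genes come first, with positions on TAIR10.1. SR30 (AT1G09140, chr1:2942538-2945976, minus strand), whose protein is known to alter splicing of its own transcript and of SR34, was at 61.8, 54.4 and 55.2 CPM in the 3 control mRNA libraries. It was at 24.4, 25.8 and 14.8 CPM in the 3 cold mRNA libraries. Every cold value lay below every control value, with the lowest in the shallow replicate 3. The log2 change was −1.43 (SE 0.21, adjusted p = 0.00258).

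SR34 (AT1G02840, chr1:626639-629993, plus strand), the Arabidopsis gene named first for its likeness to human SRSF1, was at 90.5, 76.4 and 89.3 CPM in control mRNA and at 108, 102 and 111 CPM in cold mRNA. The groups did not overlap, but the log2 change of 0.25 (SE 0.13) gave an adjusted p of 0.197. Of all genes tested, 25.8% had all 3 cold values above all 3 control values and 18.9% had all 3 below.

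Among the RS genes, each had its own pattern. RS40 (AT4G25500, chr4:13024498-13027484, plus strand), whose protein binds HYL1 and SERRATE of the microRNA processing machinery as well as acting in splicing, was at 24.3, 21.8 and 32.7 CPM in control mRNA. In cold mRNA it was at 116, 136 and 143 CPM. The highest control value was far below the lowest cold value. The log2 change was 2.25 (SE 0.19, adjusted p = 2.50e-04).

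RS41 (AT5G52040, chr5:21130320-21133709, plus strand), the closest relative of RS40 and a partner in the same interactions, was at 95.1, 78 and 92.7 CPM in control mRNA and at 98.7, 117 and 94.4 CPM in cold mRNA. The groups overlapped. Its log2 change was 0.16 (SE 0.16, adjusted p = 0.492).

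RS31 (AT3G61860, chr3:22900050-22902395, minus strand), known for alternative splicing that follows light through signals from the chloroplast, was at 35.6, 31 and 37.7 CPM in control mRNA and at 24.6, 21.5 and 23.6 CPM in cold mRNA. All cold values were lower, and the log2 change was −0.65 (SE 0.15, adjusted p = 0.0147). Leaving out cold replicate 2 gave an adjusted p of 0.0645.

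The RS2Z genes also moved in opposite directions. RS2Z32 (AT3G53500, chr3:19834240-19837088, minus strand) was at 66.5, 69.4 and 60.4 CPM in control mRNA and at 133, 125 and 140 CPM in cold mRNA. The groups were well separated, with a log2 change of 0.94 (SE 0.13, adjusted p = 0.00183). RS2Z33 (AT2G37340, chr2:15670147-15672700, minus strand), a regulator of its own splicing whose excess disturbs plant development, was at 87.4, 70.3 and 69.4 CPM in control mRNA and at 49, 63 and 42.6 CPM in cold mRNA. All cold values were again lower, but the highest cold value came near the lowest control value. The log2 change was −0.61 (SE 0.19, adjusted p = 0.0422), and the call held in 2 of the 6 fits that left out 1 library, failing without cold replicate 1 or 3 or control replicate 1 or 2 (adjusted p from 0.0881 to 0.132).

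The SCL genes, whose proteins interact with the U1 particle protein U1-70K or with other SR proteins and act partly redundantly, split the same way. SCL33 (AT1G55310, chr1:20629698-20633007, plus strand) was at 33.5, 28.1 and 32.9 CPM in control mRNA and at 9.73, 12.7 and 11.8 CPM in cold mRNA. The highest cold value was under the lowest control value by a wide gap. The log2 change was −1.54 (SE 0.17, adjusted p = 8.72e-04).

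SCL30A (AT3G13570, chr3:4429256-4432159, minus strand), a gene with a known part in seed traits and abscisic acid responses, was at 53, 43.9 and 60.1 CPM in control mRNA and at 84, 84.1 and 75 CPM in cold mRNA. All cold values were higher. The log2 change was 0.56 (SE 0.16, adjusted p = 0.0324). This call also held in 2 of the 6 fits that left out 1 library. It failed without cold replicate 1 or 2 or control replicate 1 or 2, with adjusted p from 0.0701 to 0.121.

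SR45 (AT1G16610, chr1:5675495-5678873, minus strand), an SR-like protein found with the exon junction complex with roles in flowering, sugar and salt responses, was at 39.8, 35.8 and 47.7 CPM in control mRNA. In cold mRNA it was at 57.4, 71.4 and 96.3 CPM, with the highest value in replicate 3. The groups did not overlap, and the log2 change was 0.78 (SE 0.20, adjusted p = 0.0231). Without the shallow cold replicate 3 the change was 0.59 (adjusted p = 0.0515), and without cold replicate 2 or control replicate 1 or 2 the adjusted p was 0.0571 to 0.0947.

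Scaling by library totals instead of TMM factors moved the median of all genes to −0.174 on the log2 scale in total mRNA. It lowered the share of rises among all called genes from 52.3% to 32.2%. Under it 2 SR genes rose (RS40, RS2Z32), with SCL30A at 0.39 (adjusted p = 0.222) and SR45 at 0.58 (adjusted p = 0.0634). SR30, RS40, RS2Z32 and SCL33 kept their direction and their call in all 13 alternative fits of total mRNA.

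Polysomal RNA, the RNA recovered with ribosomes, gave the same question with 2 libraries per condition. Here 3 SR genes rose (SCL30A, RS40, RS2Z32) and 2 fell (SCL33, SR30), and the other 5 did not pass the test. Of 19239 genes tested in polysomal RNA, 3.87% rose, 3.95% fell and 7.82% did either. The median size of the log2 change was 1.09 over the SR genes and 0.49 over all genes tested. Values per library came from fewer replicates than in total mRNA, and all 5 calls were lost when control polysome 1 was left out. The log2 changes were then −1.48 for SR30, 1.68 for RS40, 1.36 for RS2Z32, −1.68 for SCL33 and 1.49 for SCL30A. Without control polysome 2 SCL33 alone kept its call. Such a fit has 1 control library and takes its spread from the cold pair.

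SCL33 was at 20.5 and 18.8 CPM in control polysomes and at 6.71 and 4.95 CPM in cold polysomes. Both cold values were far below both control values, and its log2 change was −1.75 (SE 0.26, adjusted p = 0.0254). SR30 was at 33.8 and 35.7 CPM in control polysomes and at 13.9 and 11.6 CPM in cold polysomes, a log2 change of −1.45 (SE 0.22, adjusted p = 0.0254). For SR30 too the groups were far apart.

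RS40 was at 95.6 and 62 CPM in control polysomes and at 210 and 187 CPM in cold polysomes. The 2 control values were themselves far apart, and the log2 change was 1.32 (SE 0.29, adjusted p = 0.048). It was 1.05 without control polysome 2 and 1.68 without control polysome 1. RS2Z32 was at 69.9 and 64.7 CPM in control polysomes and at 186 and 144 CPM in cold polysomes, a log2 change of 1.29 (SE 0.25, adjusted p = 0.0365). SCL30A was at 40.4 and 35.3 CPM in control polysomes. Its cold values of 124 and 73.9 CPM were both higher, though unlike each other, and the log2 change was 1.38 (SE 0.30, adjusted p = 0.0472).

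SR34 was at 59.2 and 63.9 CPM in control polysomes and at 120 and 108 CPM in cold polysomes. The groups were apart, but the log2 change of 0.88 (SE 0.22) had an adjusted p of 0.0596, and DESeq2 gave 0.00715. SR45 was at 42.8 and 37.4 CPM against 71.4 and 64.4 CPM in cold, a log2 change of 0.75 (SE 0.21, adjusted p = 0.0781, and 0.0365 with DESeq2). DESeq2 called 5 SR genes higher and 2 lower in polysomal RNA.

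RS31 was at 33.4 and 32.5 CPM in control polysomes and 26.5 and 26.1 CPM in cold polysomes (log2 change −0.33, SE 0.20, adjusted p = 0.315). RS2Z33 was at 63.9 and 49.8 CPM against 47.8 and 34.3 CPM in cold (log2 change −0.48, SE 0.26, adjusted p = 0.274). For both, the cold values lay below the control values by less than the test could call. RS41, at 93.2 and 81.6 CPM against 128 and 90.8 CPM in cold, was the only SR gene whose groups overlapped in either kind of RNA (log2 change 0.32, SE 0.26, adjusted p = 0.456). For 9 of the 10 genes the groups were apart in the same direction as in total mRNA. Of 18668 genes tested in both kinds of RNA, 29.2% were apart in the same direction in both. In polysomal RNA alone, 29.7% of the genes tested had both cold values above both control values and 30.9% had both below.

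**Figure D2:**
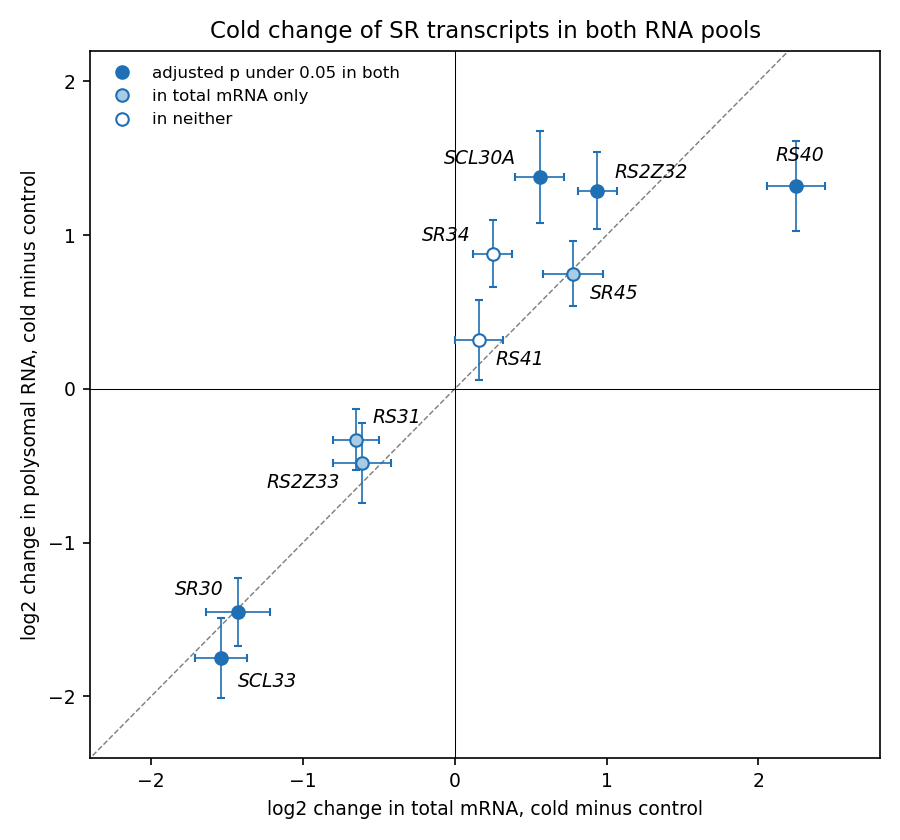
Log2 change, cold minus control, in total mRNA (x axis) and polysomal RNA (y axis) for the 10 SR genes, with bars for the SE of each estimate and a dashed line where both are equal. RS40 lies at 2.25 and 1.32, below the line, and SCL30A at 0.56 and 1.38, above it.

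Whether the cold change differed between polysomal RNA and total mRNA was tested as an interaction over the 10 count libraries. None of the 10 SR genes passed with edgeR or with DESeq2, and 3 had an unadjusted p under 0.05. Of 20001 genes tested, 0.065% were called higher and 0.22% lower, 0.285% in all. RS40 had the lowest p: its polysomal change was smaller than its mRNA change by a log2 difference of −0.99 (SE 0.33, adjusted p = 0.25). The cold marker COR15A differed in the same direction, by −2.45 (SE 0.76, adjusted p = 0.226), and any link between the 2 was not tested. SR34 had a difference of 0.57 (SE 0.22, adjusted p = 0.334) and SCL30A one of 0.76 (SE 0.32, adjusted p = 0.372). The differences of the other 7 genes were between −0.27 (SCL33) and 0.28 (RS2Z32).

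Within control seedlings, RS40 was the 1 SR gene that was higher in polysomal RNA than in total mRNA, with 3 lower (SR30, SCL33, SR34). Over all genes 14.5% were higher and 14% lower, 28.5% in all. Markers of organs moved in the same comparison. Of 4 leaf markers 3 were higher in polysomal RNA (RBCS1A, RCA, LHCB1.3), with sums of 4.21e+04 to 4.52e+04 CPM against 2.08e+04 to 2.58e+04 CPM in total mRNA. Of 6 root markers 3 were lower (COBL9, EXPA7, PHO1), with sums of 70.3 to 70.7 CPM against 136 to 151 CPM, and none of the 6 was at 0. The part of either in the SR results was not tested. The kind of library and the pool of RNA cannot be told apart in this comparison. RS40 stood at 78.8 ± 23.7 CPM (SD, n = 2) in control polysomes against 26.3 ± 5.71 CPM (SD, n = 3) in control mRNA, a log2 difference of 1.58 (SE 0.23, adjusted p = 0.0011). It passed in all 16 alternative fits, with a log2 difference from 1.25 to 1.87. COR15A, the cold marker, was also higher in control polysomes, at 681 and 199 CPM in replicates 1 and 2 against at most 40.6 CPM in control mRNA (log2 difference 3.82, SE 0.55, adjusted p = 0.00135). Replicate 1 had the higher value of both RS40 and COR15A, and the part of this in the RS40 difference was not tested.

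SR30 was lower in control polysomes than in control mRNA by a log2 difference of −0.72 (SE 0.21, adjusted p = 0.0296), SCL33 by −0.68 (SE 0.19, adjusted p = 0.0247) and SR34 by −0.47 (SE 0.16, adjusted p = 0.0455). None of these 3 passed when either control polysome library was left out, which leaves 1 library on that side. The log2 differences were then −0.67 and −0.75 for SR30, −0.74 and −0.61 for SCL33, and −0.41 and −0.52 for SR34. SR30 also failed without control mRNA replicate 1 or 2, and SCL33 without replicate 1 or 3. SR34 passed in 7 of 16 alternative fits and in 3 of the 10 that left out 1 library.

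Within cold seedlings, 2 SR genes were lower in polysomal RNA and none was higher with edgeR or DESeq2, and 1 had a higher value at an unadjusted p under 0.05. The shares over all genes were 7.31% lower and 4.14% higher, 11.4% in all. Of the markers, 1 of 4 for leaf was higher (RBCS1A) and the same 3 of 6 for root were lower. SCL33 differed by −0.95 (SE 0.21, adjusted p = 0.0187), and passed in 14 of 16 alternative fits, failing without cold mRNA replicate 2 (adjusted p = 0.0697) and without cold polysome 2 (adjusted p = 0.118). SR30 differed by −0.79 (SE 0.22, adjusted p = 0.0446), and passed in 4 of 16 alternative fits and in 1 of the 10 that left out 1 library. RS40 had a difference of 0.59 (SE 0.23, adjusted p = 0.117).

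In each of 4 pairs taken within a subfamily, 1 gene had a log2 change well above the other. The log2 ratio of their counts inside a library does not depend on scaling between libraries. With 3 against 3 libraries the smallest exact two-sided permutation p is 0.1, and with 2 against 2 it is 0.333, so no ratio could pass 0.05. Every pair reached the smallest p in both kinds of RNA, also after adjustment over the 4 pairs. This p means only that the cold and control ratios did not overlap, and how often other gene pairs do so was not counted.

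SR30 over SR34 was at −0.55, −0.49 and −0.69 in control mRNA and at −2.14, −1.97 and −2.89 in cold mRNA. SR34 had the higher count in all libraries, also per kilobase of exon, and by more in cold, with a difference of −1.76 (SE 0.287). In polysomes the ratio was −0.81 and −0.84 in control and −3.11 and −3.21 in cold, a difference of −2.34 (SE 0.0535).

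RS40 over RS41 turned from −1.97, −1.84 and −1.50 in control mRNA to 0.24, 0.21 and 0.60 in cold mRNA. RS41 had the higher count in every control mRNA library and RS40 in every cold one, also per kilobase of exon, with a difference of 2.12 (SE 0.186). In control polysomes the ratio was 0.04 and −0.39, already near equal, and in cold polysomes 0.71 and 1.04, a difference of 1.05 (SE 0.272).

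RS2Z32 over RS2Z33 turned from −0.40, −0.02 and −0.20 in control mRNA to 1.44, 0.98 and 1.71 in cold mRNA. The difference was 1.58 (SE 0.238). The polysomal ratio was 0.13 and 0.38 in control and 1.96 and 2.07 in cold, a difference of 1.77 (SE 0.134).

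SCL33 over SCL30A was at −0.66, −0.64 and −0.87 in control mRNA and at −3.10, −2.72 and −2.65 in cold mRNA. SCL30A had the higher count in every library, also per kilobase of exon, and the ratio differed by −2.10 (SE 0.158). In polysomes the ratio was −0.98 and −0.91 in control and −4.20 and −3.89 in cold, a difference of −3.10 (SE 0.162). Reads that fitted several loci were given to no gene, so counts of close copies rest on the reads that tell them apart.

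**Figure D3:**
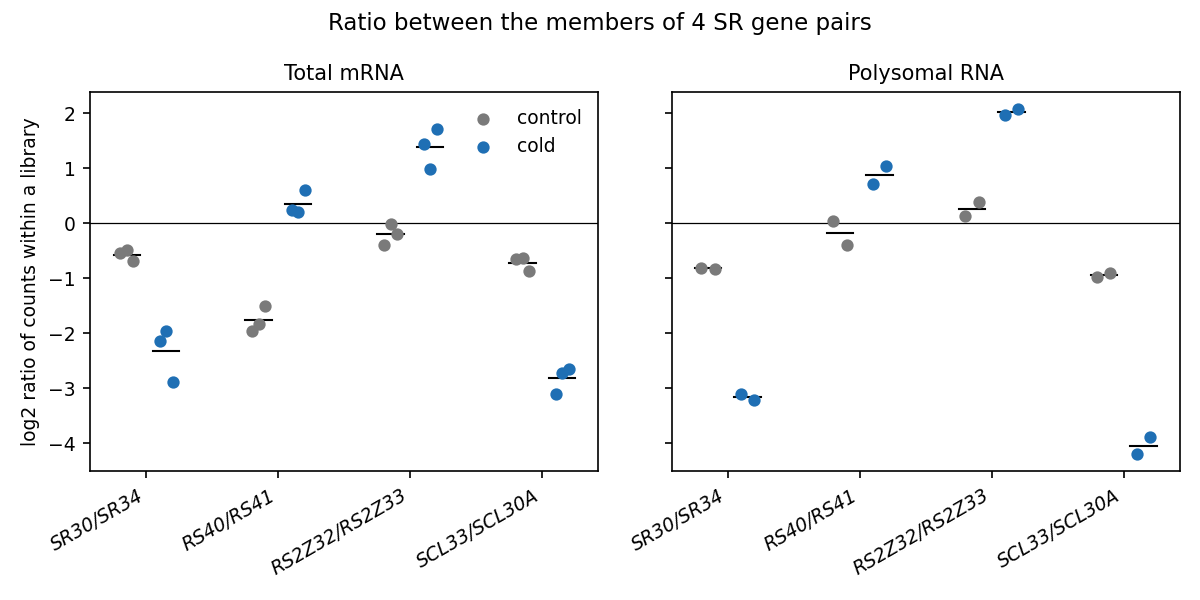
Log2 ratio of the counts of paired SR genes within each total mRNA library (left) and polysomal RNA library (right), with control in grey, cold in blue and a black line at each group's mean. Control and cold libraries do not overlap for any pair, and RS40/RS41 crosses 0 between control mRNA (−1.97 to −1.50) and cold mRNA (0.21 to 0.60).

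To compare levels between genes, CPM were divided by the length of all annotated exons in kilobases (CPM per kb). This length takes in every annotated isoform, so it can lower the level of a gene with many. It was 2.635 kb for SCL33 with 7 transcripts and 1.277 kb for SCL30A with 1. Order, shares and sums below depend on it. The summed level of the 10 genes in total mRNA was 309, 268 and 305 CPM per kb in control and 367, 389 and 384 CPM per kb in cold. RS40 took 3.1%, 3.21% and 4.23% of the summed level in control mRNA and 12.5%, 13.8% and 14.7% in cold mRNA. SCL33 took 3.98% to 4.11% in control and 1.01% to 1.24% in cold. Each cold library was above each control library for the sum and for RS40, and below for SCL33.

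In control mRNA the order by CPM per kb ran from RS2Z33 (44 ± 5.89) through SR34, SCL30A, RS2Z32, RS41, RS31, SR30, SR45 and SCL33 to RS40 (10.4 ± 2.25; SD, n = 3). Neighbours overlapped in the range of their libraries down to SR30, SR45 stood apart from both its neighbours, and SCL33 overlapped RS40. In cold mRNA the order ran from RS2Z32 (72.7 ± 4.12) through SCL30A, SR34, RS40, RS41, SR45, RS2Z33, RS31 and SR30 to SCL33 (4.33 ± 0.576; SD, n = 3). RS2Z32 and SCL30A stood apart at the top, SR34 to RS2Z33 overlapped from neighbour to neighbour, and RS31, SR30 and SCL33 stood apart at the bottom. RS40 ranked 10 in control mRNA and 4 in cold mRNA.

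In control polysomes neighbours overlapped from RS2Z32 (36.9 ± 2.03 CPM per kb; SD, n = 2) down to RS31 (27.4 ± 0.475; SD, n = 2), and SR45, SR30 and SCL33 followed apart from each other. In cold polysomes RS2Z32 led at 90.8 ± 16.3 CPM per kb (SD, n = 2), overlapping RS40, and SCL33 was last at 2.21 ± 0.472 CPM per kb (SD, n = 2).

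Summed levels of the pairs were also compared. SR30 and SR34 together were at 67.4 ± 5.21 CPM per kb in control mRNA and 62.3 ± 1.48 in cold mRNA (SD, n = 3), and the groups overlapped. RS40 and RS41 together were at 46 ± 5.34 and 93.6 ± 7.65 CPM per kb (SD, n = 3), RS2Z32 and RS2Z33 at 79.8 ± 6.94 and 103 ± 2.05, and SCL33 and SCL30A at 53 ± 7.34 and 67.8 ± 4.03. For these 3 pairs the cold values were all above the control values. In polysomal RNA the sum was higher in both cold libraries for every pair. That of SR30 and SR34 was at 45.7 ± 2.27 CPM per kb in control and 61.9 ± 4.86 in cold (SD, n = 2). Of single genes tested, 25.8% in total mRNA and 29.7% in polysomal RNA had all cold values above all control values. How often the sums of other gene pairs do so was not counted.

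Other parts of the splicing machinery were read for comparison, in total mRNA first. Of the 10 other SR and SR-like genes, 1 rose and 3 fell. SR45A, an SR-like gene induced by heat and strong light, had a log2 change of −1.26 (SE 0.22, adjusted p = 0.00461), RS31A, the relative of RS31, one of −1.02 (SE 0.28, adjusted p = 0.0281), RSZ21 −0.85 (SE 0.23, adjusted p = 0.0252) and RSZ22A 0.63 (SE 0.17, adjusted p = 0.0273). Of 10 SR protein kinases, SRPK3 (AT5G22840) rose by 1.03 (SE 0.19, adjusted p = 0.00591), and the LAMMER kinases AFC2 (−0.97, SE 0.15, adjusted p = 0.00336) and AFC1 (−0.73, SE 0.21, adjusted p = 0.036) fell.

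Among 7 U1 and U2AF genes, which encode the parts that SR proteins contact at splice sites, U1C rose by 0.86 (SE 0.19, adjusted p = 0.0117) and U1-70K by 0.53 (SE 0.14, adjusted p = 0.0241), and none fell with edgeR or DESeq2, with 1 lower at an unadjusted p under 0.05 (U2AF65B). From the list of nonsense-mediated decay and cap binding, the pathway that removes transcripts with early stop codons and the proteins on the cap, CBP80 rose by 0.73 (SE 0.13, adjusted p = 0.00535). Of 3 genes of the splicing repressor PTB, PTB1 rose by 1.04 (SE 0.14, adjusted p = 0.00167), while PTB2 had a log2 change of −0.11 (SE 0.19, adjusted p = 0.707). In polysomal RNA, RSZ21 fell by 2.04 on the log2 scale (SE 0.27, adjusted p = 0.0232), and CBP80 (0.94, SE 0.21, adjusted p = 0.0462) and PTB1 (1.34, SE 0.25, adjusted p = 0.0359) rose. No other gene of these lists passed in polysomal RNA with edgeR, where SRPK3 (adjusted p = 0.0618) and U1C (adjusted p = 0.0535) missed the threshold. At an unadjusted p under 0.05 the kinases had 1 gene higher and 1 lower and the U1 and U2AF genes 1 higher, and DESeq2 called 1 gene higher in each of these lists.

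The m6A peak lists were read for which SR transcripts carried peaks in each condition. The authors called peaks in each list by itself and deposited peaks with no limit on q. All 10 SR genes had a deposited peak in all 6 lists, as did 78.4% of the 9982 genes whose log2 CPM averaged 4 or more over the total mRNA libraries. With a q of at most 0.05, the SR genes had a peak in 17 of 30 pairs of gene and control list and in 18 of 30 pairs of gene and cold list.

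Per list, 4, 6 and 7 SR genes had such a peak in control lists 1, 2 and 3, and 5, 7 and 6 in cold lists 1, 2 and 3. Among the 9982 genes these shares were 44.7%, 55.1% and 56.2% in control and 52.3%, 53.4% and 27.9% in cold. Cold list 3 was the shortest, with 15383 peaks against 23174 to 27310.

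No SR gene had such a peak in all 3 lists of one condition and none of the other. Of the 19261 genes tested in total mRNA, 1.13% had that pattern for control and 0.244% for cold. With at least 2 of 3 lists of one condition and none of the other, RS31 was found for control and RS41 for cold. This pattern was seen in 4.7% and 2.21% of the same 19261 genes. These include genes at low levels, and the shares among genes of like level were not counted. A list holds no counts of its background, so a peak missing at this threshold may have been present at a level the list could not call, and no p is given.

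SR45 had a peak with a q of at most 0.05 in all 6 lists, as did 10.8% of the 9982 genes. Places and distances are those on the annotated transcript with the longest coding sequence among those that span the summit. The SR45 peak nearest the 3′ end lay in the 3′ UTR in every list, with the summit 112 to 190 bases past the stop codon in the spliced transcript. SCL33 had such a peak in 3 control and 2 cold lists. On the transcript used, all its summits were in the coding sequence, 178 to 54 bases before the stop codon. In 2 of its 7 coding transcripts some of them fell in the 3′ UTR or in an intron instead.

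SCL30A passed in 1 control and 3 cold lists. In the cold lists the summits that passed lay 69 or 70 bases past the stop codon, with −log10 q of 3.22, 3.16 and 3.2. In control list 3 the summit was 55 bases past the stop codon with a −log10 q of 7.19, the highest of any SR peak, while control lists 1 and 2 held a summit 49 bases before the stop codon that did not pass.

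RS40 passed in 3 control lists and 1 cold list. In the control lists the summits that passed lay 252, 240 and 253 bases before the stop codon, all in the coding sequence. Their −log10 q were 2.52, 3.65 and 5.45. Cold lists 1 and 2 held a peak 253 and 233 bases before the stop codon with −log10 q of 0.2 and 0.0. The peak that passed in cold list 2 lay 739 bases before the stop codon. Control lists 2 and 3 also held peaks in that stretch, with summits 668 and 707 bases before the stop codon and −log10 q of 0.0 in both. Cold list 3, the shortest, held summits 486 and 103 bases before it with −log10 q of 0.0 and 0.55. The RS40 transcript was at the higher level in cold, and the part of its level in these peak values was not tested.

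RS31 passed in control lists 2 and 3, with summits 141 and 142 bases past the stop codon and −log10 q of 5.01 and 4.45. The 3 cold lists held summits 139 to 143 bases past the stop codon with −log10 q of 0.62, 0.07 and 1.2, so the peak stayed at the same place without passing. RS41 passed in no control list and in cold lists 2 and 3, with summits 28 and 86 bases before the stop codon and −log10 q of 4.98 and 1.95. Control lists 1, 2 and 3 also held RS41 peaks in this part. Their summits nearest the 3′ end lay 87, 300 and 17 bases before the stop codon, with −log10 q of 0.0, 1.13 and 0.18.

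SR30 and SR34 each passed in 1 control and 2 cold lists, RS2Z32 in 1 of each, and RS2Z33 in 2 of each. The SR30 summits nearest the 3′ end were all in the 3′ UTR, 194 to 230 bases past the stop codon. Control lists 1, 2 and 3 also held SR30 summits in the coding sequence, 641, 640 and 705 bases before the stop codon, each with a −log10 q of 0.0. The RS2Z32 summits nearest the 3′ end were all in the coding sequence, 184 to 172 bases before the stop codon. Of 111 peaks on the 10 genes, 42 had a q of at most 0.05, and of these 21 had the summit in coding sequence, 20 in the 3′ UTR and 1 in an intron, all by the transcript used. For 37 of the 42 every coding transcript over the summit gave the same place, and for 5 they differed (3 of SCL33, 1 of SR34, 1 of RS41). The RS41 summit placed in an intron (cold list 2) was in the 5′ UTR of 4 of its 7 coding transcripts, in coding sequence of 1 and in an intron of 2.

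**Figure D4:**
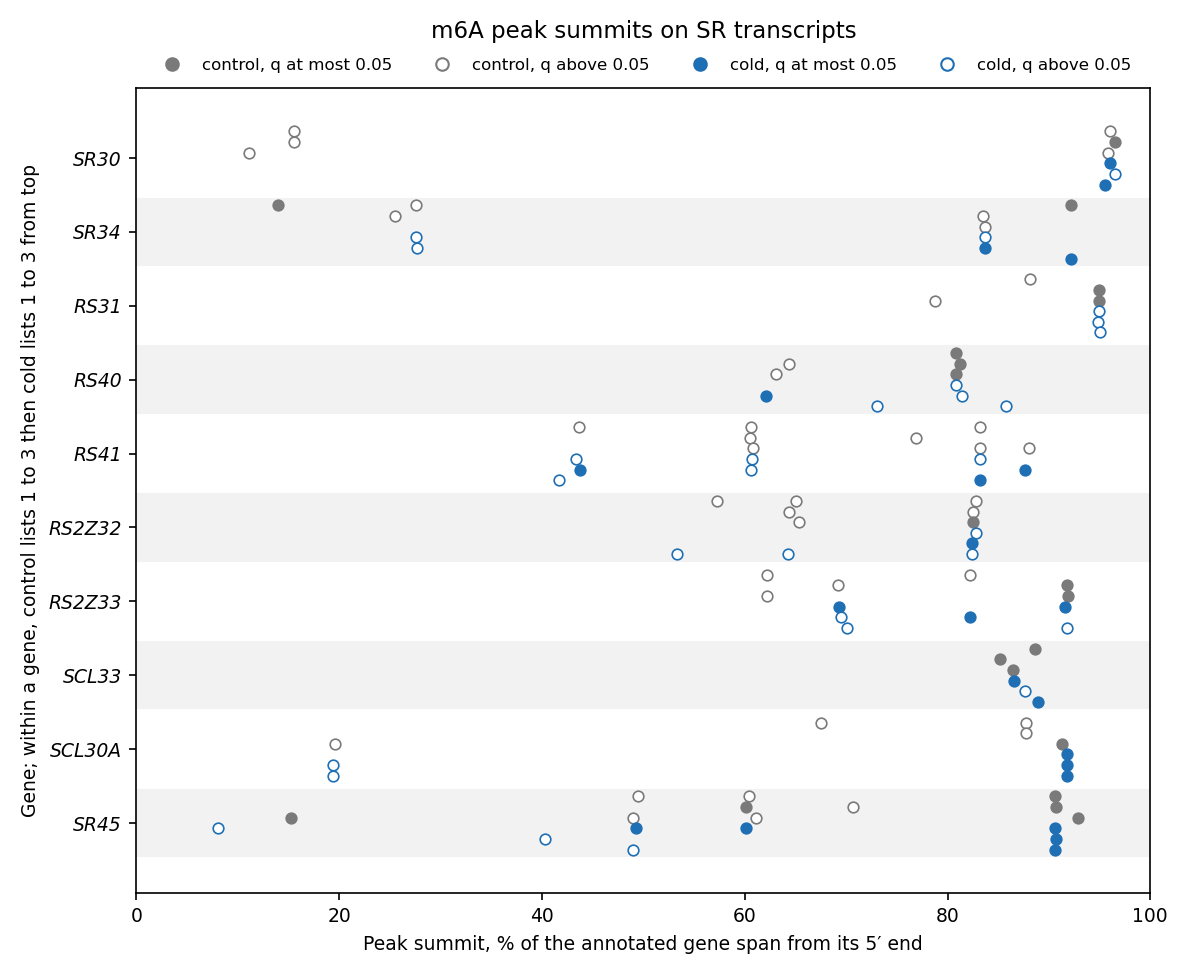
Position of every m6A peak summit on the 10 SR genes as a percentage of the annotated gene span from its 5′ end, with 6 lines per gene for control lists 1 to 3 (grey) and cold lists 1 to 3 (blue), filled where q is at most 0.05. In each list the summit nearest the 3′ end falls between 76.9% and 96.5% of the span, and SR45 is filled there in all 6 lists.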

How the data were processed

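Counts per gene are as the authors deposited them, made with STAR and HTSeq on TAIR10 per the submitters' processing notes without versions. Peaks are from MACS2 per the same notes. The peak files hold a deposited fold enrichment (a ratio over background), −log10 p and −log10 q, and a score. The strand setting and annotation release of counting are not given in the sources used here. Of 830 genes wholly covered by exons of opposite-strand genes, 106 reached 100 counts over the 6 mRNA libraries together and 362 had 0. Counting that ignored strand on these same exons would leave reads there out as ambiguous and give low counts. The exons are those of RefSeq TAIR10.1 and may differ from the ones used in counting, so these numbers cannot decide the strand setting. The genes with the longest antisense overlaps of the SR genes (AT5G52045 over RS41, AT2G08865 over RS2Z33) had at most 1 count per library. Whether RS41 and RS2Z33 lost reads in these overlaps was not tested. Reads naming no gene (68.8% to 93.4% of tallied reads in mRNA, 6.21% to 7.19% in polysomes) were left out. Reads with no unique alignment were 61.9% to 82.2% of tallied reads in mRNA, highest in cold replicate 3, and 4.65% to 5.5% in polysomes. The part of this in the contrasts between the 2 kinds of library was not tested. Peak names gave the strand opposite to the transcript for 98.2% to 98.7% of peaks in genes of one strand, so a peak was given to the gene opposite its named strand in which its summit lay. Positions use RefSeq TAIR10.1, whose chromosomes hold all peak ends, and 32548 features matched it. No replicate pair agreed within sampling noise (chi-square per degree of freedom at least 11.38).

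Comparisons used edgeR 4.0.16 in R 4.3.3 (quasi-likelihood, robust, TMM, filterByExpr), adjusted p by Benjamini-Hochberg with all tested genes, and a threshold of 0.05. The mRNA fit had 6 libraries, the polysome fit 4, and contrasts between them 10. DESeq2 1.42.0, other scalings and filters, a replicate block and leaving out each library were alternatives. Pair ratios used log2 of counts plus 0.5 and exact permutation tests. All 10 SR genes are named. From the comparison lists, genes past the threshold, and at least the 2 of lowest p in total mRNA, may be named, except 1 gene that is not reported here. For likeness of pattern, 1 gene per member was taken by Pearson's r of log2(CPM + 0.5). The genes, lists and tests were chosen with earlier results of these data known.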

Additional observations from a re-analysis of the deposited data

How the results depend on the processing

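In total mRNA the number of SR genes higher in cold was 4, with 2 under library totals and 2 to 4 when 1 library was left out. In polysomal RNA it was 3, with 1 under library totals, 4 with no filter, and 5 with DESeq2, a replicate block or all 10 libraries in one fit. The number lower in polysomal RNA was 2 in each of these fits. Fits that leave out 1 polysome library hold 1 library on that side, and the calls lost without a control polysome library are given above. The number lower in polysomal than total mRNA was 3 in control (0 to 3 leaving out 1 library) and 2 in cold (1 under library totals, DESeq2 size factors in edgeR or no filter, and 0 to 2 leaving out 1 library). Counting at least 2 of 3 m6A lists gave 1 gene only in control and 1 only in cold, and leaving out 1 list gave 0 to 1 of each. The cause of these shifts was not tested. No pair ratio changed sign.

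Signs that turned were all of log2 values that did not pass. Under library totals RS41 was at −0.01 in total mRNA, SR30 at 0.08 and SR45 at 0.12 in the interaction, RS2Z32 at −0.22 in control polysomes against mRNA, and RS41 at −7.2e-04 in cold polysomes against mRNA. Leaving out 1 library, the interaction ranged from −0.23 to 0.06 for SR30, from −0.14 to 0.33 for RS41, from −0.16 to 0.29 for RS2Z33 and from −0.26 to 0.14 for SR45. In control polysomes against mRNA, RS41 was at 0.01 with no filter, and leaving out 1 library gave −0.11 to 0.08 for RS41, −0.01 to 0.11 for RS2Z32 and −0.13 to 0.09 for SR45. In cold polysomes against mRNA, it gave −0.15 to 0.32 for RS41, −0.09 to 0.62 for SCL30A and −0.30 to 0.11 for SR45. With the replicate block SR45 was at 0.13 in control and 0.03 in cold.

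Same-numbered mRNA libraries did not deviate together (correlations −0.04, −0.03 and 0.23), and polysomes had only 2 pairs (0.47), so the block was not used. In total mRNA it left SCL30A at an adjusted p of 0.0558, and in polysomes it gave 0.0238 for SR34 and 0.0294 for SR45. Over all genes the polysome comparison called 744 higher and 760 lower, against 1714 and 1464 with DESeq2 and 2199 and 2309 with the block, and from 141 to 2199 higher and 207 to 2309 lower over 11 alternatives. Over its alternatives total mRNA (2586 higher, 2363 lower) ranged from 1361 to 2746 and 1148 to 2872, the interaction (13 and 44) from 0 to 196 and 1 to 320, control polysomes against mRNA (2897 and 2795) from 1478 to 3185 and 1255 to 3982, and cold polysomes against mRNA (828 and 1462) from 95 to 1510 and 310 to 1841. The polysome comparison rests on 2 libraries per condition, and cold mRNA replicate 3 held 3282574 gene counts.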

Other observations

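Over the 10 count libraries, the gene outside the 10 whose log2(CPM + 0.5) followed each SR gene most closely was searched among the 9808 other genes whose log2 CPM averaged 4 or more over these 10 libraries. Pearson's r was 0.994 for RS40 with ADS2, 0.992 for RS2Z32 with MEE21, 0.991 for SCL30A with TRM11 and 0.982 for SR30 with GH9B13. It was 0.978 for SCL33 with AT2G45380, 0.977 for SR34 with Hop2, 0.975 for SR45 with AT5G53880 and 0.949 for RS2Z33 with AT1G69510. It was lowest for RS31 with TOM1 (0.938) and RS41 with HTA9 (0.918). The libraries share treatment and kind of RNA, and each value is the highest of many, so these are descriptions with no test.

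SCL30A also had 5 peaks on the antisense strand, in 5 of the 6 lists, of which 1 had a q of at most 0.05. Their names gave the strand of the gene itself, which by the rule used here places them opposite to it. RS40, RS41 and SCL33 had 1 such peak each, and the other 6 SR genes had none.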
